A study of Homo sapiens with 6 samples.

Results

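Hepatocyte identity is maintained by a small network of transcription factors, and this report follows 8 of them, HNF4A, HNF4G, FOXA1, FOXA2, FOXA3, CEBPA, ONECUT1 and PROX1, in luciferases-expressing HepG2 cells treated with sedanolide. The 8 genes were taken by their symbols, each of which matched 1 Ensembl gene among the 61541 genes of the deposited count table, and all 8 had enough counts to be tested among 14102 genes. HepG2 is a human hepatoblastoma cell line, and the cells used here carry the red-emitting SLR3 luciferase under antioxidant response elements and the green-emitting ELuc luciferase as an internal control. The sedanolide group holds 3 libraries from cells exposed to 100 μM sedanolide for 24 h, and the control group holds 3 libraries from cells labelled Control, for which the sources do not state whether the solvent was added. Both groups carry both reporters. Sedanolide is a phthalide that the study examined as an activator of the KEAP1-NRF2 pathway.

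HNF4A is a nuclear receptor that binds the promoters of a large share of the genes that hepatocytes express, and its relative HNF4G recognizes much the same DNA. The FOXA proteins are forkhead factors that open closed chromatin in the early endoderm and stay bound to liver enhancers in the adult. CEBPA is a basic leucine zipper factor that drives metabolic genes and restrains growth, ONECUT1, also called HNF6, is a cut-homeodomain factor, and PROX1 is a homeodomain factor needed for hepatoblast migration that also acts as a corepressor of HNF4A and other nuclear receptors. These factors bind each other's regulatory regions and their own.

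HNF4A lies on chromosome 20 of GRCh38 from 44355699 to 44432845 on the plus strand and is transcribed from an upstream promoter and a downstream promoter, which lies within an intron of the longer transcripts. The downstream promoter is known as the main promoter of adult liver. A gene-level count joins the transcripts of both. The reference sequence of the 250 bases before each of the RefSeq starts (GRCh38.p14) is given because HNF4A had the highest level of the 8 factors and because its promoters hold the core motif of another factor described here. ONECUT1 and CEBPA are shown as a contrast, since their sedanolide libraries lay below all controls and their windows overlap no annotated exon. Sequences are on the strand of the gene, and capitals mark matches on either strand to the 6 motifs searched. These were ATTGAT for the core of a ONECUT site, TGTTTAC for a forkhead site, CAAAGTCCA for an HNF4 site, TTGCNNAA for a C/EBP site, TGACNNNGC for the core of an antioxidant response element and TATAAA for the TATA box. No matches overlapped.
HNF4A upstream promoter, chr20:44355449-44355698, plus strand: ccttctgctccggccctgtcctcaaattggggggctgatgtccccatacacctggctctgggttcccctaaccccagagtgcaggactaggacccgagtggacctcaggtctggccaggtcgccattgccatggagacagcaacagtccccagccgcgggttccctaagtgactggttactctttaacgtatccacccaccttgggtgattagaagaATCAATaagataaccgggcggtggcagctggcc
HNF4A downstream promoter, chr20:44400989-44401238, plus strand: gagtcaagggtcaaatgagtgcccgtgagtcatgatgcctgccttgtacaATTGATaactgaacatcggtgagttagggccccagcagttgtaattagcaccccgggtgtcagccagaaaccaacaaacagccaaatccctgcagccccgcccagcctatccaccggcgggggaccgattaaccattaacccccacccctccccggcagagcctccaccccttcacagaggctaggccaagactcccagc
ONECUT1, chr15:52790337-52790586, minus strand: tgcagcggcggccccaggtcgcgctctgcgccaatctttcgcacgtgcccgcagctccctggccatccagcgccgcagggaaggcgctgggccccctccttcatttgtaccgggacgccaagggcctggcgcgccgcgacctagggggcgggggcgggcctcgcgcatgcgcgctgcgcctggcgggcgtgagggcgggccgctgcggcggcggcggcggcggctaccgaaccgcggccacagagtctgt
CEBPA, chr19:33302535-33302784, minus strand: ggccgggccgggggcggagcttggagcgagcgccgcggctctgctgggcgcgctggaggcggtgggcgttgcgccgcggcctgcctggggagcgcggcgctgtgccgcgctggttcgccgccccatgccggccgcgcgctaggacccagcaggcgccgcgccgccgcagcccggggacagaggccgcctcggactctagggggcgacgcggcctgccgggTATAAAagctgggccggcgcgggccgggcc

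The ONECUT core was found once in each HNF4A promoter, with its first base 33 bases before the start in the upstream promoter and 200 bases before it in the downstream promoter. It occurs in 5.58% of 35116 RefSeq promoter windows of this length. The HNF4A windows were shown partly because they hold this core, so the share does not measure how unusual these matches are. CEBPA has a TATA box 30 bases before its start, as 10.7% of windows do, and the window of ONECUT1 holds none of the 6 motifs. The forkhead, HNF4, C/EBP and antioxidant response element letters were absent from these 4 windows, while 2.98%, 0.325%, 9.05% and 10.9% of all windows hold them. A match describes letters in the reference and is not evidence of binding. The motifs were chosen after the sequences and the expression values were known.

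Total expected counts were between 16420258 and 26714853 per library. The libraries also differed in a way that did not follow the treatment. Component 1 of a principal component analysis of log2 CPM held 56.1% of the variance and set control 1, control 2 and sedanolide 3 (side A) apart from control 3, sedanolide 1 and sedanolide 2 (side B). Mitochondrial genes took 1.43% to 2.15% of the counts in side A and 4.23% to 5.22% in side B. Neither the labels nor the methods name a batch. Because side was read from the expression of all genes, differences between the sides are given as descriptions without a test. Adjusted p-values and calls from the fit with the side as a term rest on the same reading. They are given as descriptions too. All 10 hepatocyte markers, among them ALB and APOA1, were tested, with a summed level of 31934 to 47803 CPM in control and 23859 to 40509 CPM in sedanolide libraries. By side, this sum was 40509 to 47803 CPM in side A and 23859 to 31934 CPM in side B, without overlap. APOB, AFP and SERPINA1 had the highest mean levels of these markers. None of the 10 was called by edgeR, beside 0.667% of all genes tested. In the fitted fold change 9 were lower and 1 higher, with a median log2 difference of -0.33. At an unadjusted p-value under 0.05, 3 were lower, beside 6.57% of all genes tested. In 4 the sedanolide libraries lay below all controls, beside 9.65% of all genes tested.

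Markers of other cell types were also counted. Of the 15 mesenchymal and stromal markers, 5 were at 0 in all libraries, DCN and COL1A2 among them, and VIM had at most 1 count. Their sum, led by FN1 (hepatocytes also make it), CDH2 and ACTA2, was 8381 to 18720 CPM in control and 6083 to 21153 CPM in sedanolide libraries. It was 14784 to 21153 CPM in side A and 6083 to 8609 CPM in side B. For the 15 biliary and progenitor markers, of which SOX9, LGR5 and GGT1 were highest and AQP1 was at 0, the sums were 504.1 to 582.2 CPM and 435 to 535.7 CPM. By side they were 535.7 to 582.2 CPM in side A and 435 to 504.1 CPM in side B. Of the 10 endothelial and blood cell markers, 5 were at 0, VWF and CD3E among them. The sum of this list, nearly all of it LYZ, with CD68 and PECAM1 next, was 820.6 to 1332 CPM in control and 486.5 to 773.7 CPM in sedanolide libraries, and these groups did not overlap. Of the 10 intestinal and gastric markers, 5 were at 0 and CDX2 had at most 12 counts. Their sum, led by VIL1 and FABP2, was 320.4 to 346.4 CPM in control and 259.0 to 286.1 CPM in sedanolide libraries, again without overlap. It was nearly all VIL1, with a mean of 300.2 CPM against 2.62 CPM for FABP2 over all libraries. Among single genes, 9.65% of all tested had every sedanolide library below every control. None of the markers in these lists was called by edgeR. KRT19, CD24, PDGFRB and LYZ were called as lower both with DESeq2 and with the side as a term, and KRT23 with the latter. In these fits 2.31% and 2.69% (1.62% as lower) of all genes tested were called. CD24 and KRT23 were low, with means of 0.67 and 2.63 CPM over all libraries. The part of these levels in the results on the factors was not tested.

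To compare the levels of different factors, TPM (transcripts scaled to library size, a value per transcript length) were taken from the second deposited table, which lists 7 of the 8 factors. HNF4A was the highest, with 132.5 ± 17.0 TPM in control cells (SD, n = 3), followed by CEBPA with 64.4 ± 5.33 TPM and FOXA2 with 53.5 ± 7.96 TPM. The lowest control library for HNF4A (113.7 TPM) was above the highest for CEBPA (70.5 TPM), whereas CEBPA and FOXA2 overlapped, since FOXA2 reached 62.3 TPM in control 3 and CEBPA was at 60.7 TPM in the same library. PROX1 had 36.4 ± 3.78 TPM and FOXA3 had 33.8 ± 6.58 TPM, and these neighbours overlapped as well. FOXA1 had 24.6 ± 2.17 TPM, below every control value of FOXA3. HNF4G had 7.70 ± 2.27 TPM, and its highest control library (10.3 TPM) was below the lowest of FOXA1 (22.4 TPM). ONECUT1 is not listed in the TPM table, and in the count table it had 110 to 212 counts per library, the lowest of the 8 genes.

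In sedanolide-treated cells HNF4A again had the highest level, with 106.2 ± 22.2 TPM, and HNF4G the lowest, with 6.93 ± 2.18 TPM (SD, n = 3). FOXA2 (56.4 ± 11.9 TPM) and CEBPA (47.4 ± 1.71 TPM) overlapped in their ranges, with FOXA2 now the higher in the mean. FOXA3 had 30.7 ± 8.43 TPM, PROX1 24.3 ± 4.24 TPM and FOXA1 18.5 ± 2.25 TPM. FOXA3 overlapped PROX1 and PROX1 overlapped FOXA1, whereas the lowest CEBPA library (45.5 TPM) was above the highest of FOXA3 (39.3 TPM) and the lowest FOXA1 library (16.9 TPM) was above the highest of HNF4G (9.40 TPM).

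**Figure D1:**
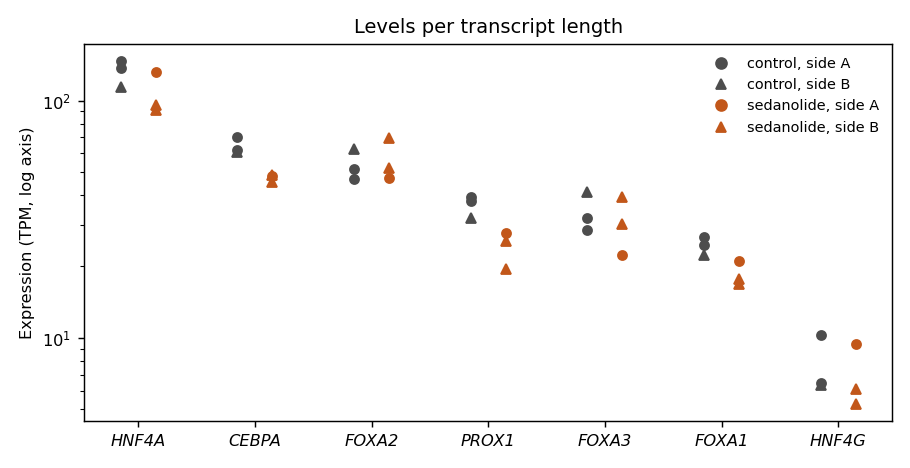
Expression of 7 factors in TPM on a log axis, ordered by the control mean, with each point a library, colour for the group and shape for the side of component 1. HNF4A lies between 91.0 and 146.6 TPM in all libraries, and HNF4G between 5.28 and 10.3 TPM.

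None of the 8 factors passed the test between sedanolide and control (edgeR's quasi-likelihood test, FDR of 0.05 and fold change of 1.5), where 0.667% of all genes tested were called (0.355% higher and 0.312% lower). At an unadjusted p-value under 0.05, PROX1, ONECUT1, FOXA1 and CEBPA were lower and no factor was higher, and in all genes tested 6.57% were lower and 5.34% higher at this level. DESeq2, with 2.31% of all genes called, and limma-voom, with 103 of 14102 genes called, also called 0 of the 8. So did the fit with the side as a term, in which 1.62% of all genes were called as lower. In these same 4 genes the 3 sedanolide libraries lay below the 3 control libraries, as they did in 9.65% of all genes tested, and the groups did not overlap in either direction in 18.3%. The 95% interval of the fold change lay within 2-fold in either direction for all 8 factors, and for 76.4% of all genes tested. The log2 fold changes of the 8 ranged from -0.48 to 0.20 with a median of -0.26, beside a median of 0.0057 over all genes tested. In libraries of whole cultures, fewer cells that express a factor and less RNA of it per cell cannot be told apart.

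**Figure D2:**
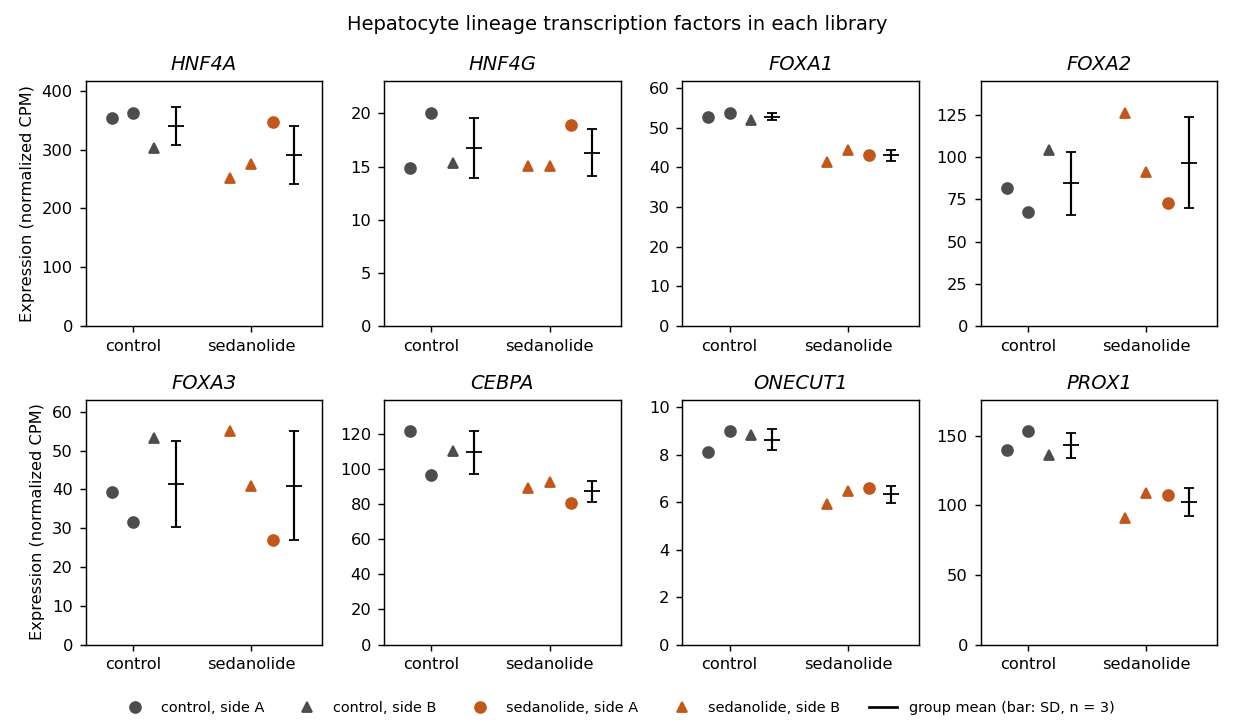
Normalized CPM of each factor in the 6 libraries, with the mean and SD of each group (n = 3) beside the points and shape for the side of component 1. For FOXA1, CEBPA, ONECUT1 and PROX1 every sedanolide library lies below every control library, and for the other factors the groups overlap.

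PROX1 (ENSG00000117707, chromosome 1 from 213983181 to 214041510, plus strand) had the lowest unadjusted p-value of the 8. Normalized CPM (counts scaled to library size after TMM scaling) were 139.8, 153.0 and 136.4 in the control libraries (1 to 3) and 91.1, 109.2 and 107.3 in the treated ones (sedanolide 1 to 3). Every sedanolide library was below every control library, and the mean went from 143.1 ± 8.80 to 102.5 ± 9.93 CPM (SD, n = 3). The log2 difference was -0.48 (standard error 0.123, 95% interval -0.77 to -0.19), with an unadjusted p of 0.00560 and an adjusted p of 0.186 from edgeR's quasi-likelihood test. With the side as a term its log2 difference was -0.45 and its adjusted p 0.0464, and with DESeq2 these were -0.48 and 0.0247. It was thus past the FDR threshold in these fits but not past the fold change of 1.5. The side in the former fit was read from these same data. In the same fits 2.35% and 1.75% of all genes were lower at this FDR, with no regard to fold change. The antisense PROX1-AS1 shares 163 exon bases with PROX1, and its counts came to 1.21% of those of PROX1.

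ONECUT1 (ENSG00000169856, chromosome 15 from 52755053 to 52791078, minus strand) had the least counts. It was at 8.12, 8.98 and 8.82 CPM in the control libraries (1 to 3) and at 5.91, 6.49 and 6.58 CPM in the treated ones (sedanolide 1 to 3). The groups did not overlap and the libraries within each group were close to each other. The log2 difference was -0.45 (standard error 0.131, 95% interval -0.76 to -0.14, adjusted p = 0.246 from edgeR). With the side as a term the adjusted p was 0.0981. Its paralog ONECUT2 was at 61.4 ± 5.43 CPM in control and 64.9 ± 0.958 CPM in sedanolide-treated cells (log2 fold change 0.08, adjusted p = 0.812), and ONECUT3 had at most 2 counts in a library.

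CEBPA (ENSG00000245848, chromosome 19 from 33299934 to 33302534, minus strand) is annotated as a single transcript. It was at 121.2, 96.7 and 110.0 CPM in the control libraries (1 to 3) and at 88.8, 92.2 and 80.3 CPM in the treated ones (sedanolide 1 to 3). The lowest control (control 2) was 96.7 CPM and the highest sedanolide library (sedanolide 2) 92.2 CPM, so that the gap between the groups was smaller than the spread among controls. The log2 difference was -0.33 (standard error 0.129, 95% interval -0.63 to -0.024, adjusted p = 0.379 from edgeR). CEBPA shares 659 exon bases with the gene ENSG00000267580, transcribed from the other strand and counted at 9.67% of the counts of CEBPA. The library kit keeps the strand, but the sources used here do not state whether the counting used it. That gene had a log2 difference of -0.11 (adjusted p = 0.931).

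Among other members of the C/EBP family, CEBPB, which is raised in the acute phase response, was at 50.1 ± 3.48 CPM in control and 54.2 ± 2.92 CPM in sedanolide-treated cells. CEBPD was at 32.5 ± 2.09 and 27.6 ± 1.80 CPM, a log2 difference of -0.24 (adjusted p = 0.471). The sedanolide libraries were all below the controls for CEBPD and overlapped them for CEBPB.

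FOXA1 (ENSG00000129514, chromosome 14 from 37589552 to 37596059, minus strand) was at 52.6, 53.7 and 52.1 CPM in the control libraries (1 to 3) and at 41.5, 44.3 and 43.2 CPM in the treated ones (sedanolide 1 to 3). Both groups were tight and lay apart, with 52.8 ± 0.838 against 43.0 ± 1.45 CPM (SD, n = 3). The log2 difference was -0.30 (standard error 0.101, 95% interval -0.53 to -0.059, adjusted p = 0.310 from edgeR). TTC6 on the opposite strand shares 16 exon bases with FOXA1, and its counts came to 6.28% of those of FOXA1.

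FOXA2 (ENSG00000125798, chromosome 20 from 22580998 to 22585455, minus strand) was at 81.5, 67.4 and 104.3 CPM in the control libraries (1 to 3) and at 126.1, 91.1 and 73.1 CPM in the treated ones (sedanolide 1 to 3). The high libraries were control 3, sedanolide 1 and sedanolide 2, which are those of side B. The log2 fold change between the groups was 0.20 (standard error 0.241, 95% interval -0.37 to 0.77, adjusted p = 0.779 from edgeR), and between side B and side A it was 0.53 in the fit with both terms.

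FOXA3 (ENSG00000170608, chromosome 19 from 45863989 to 45873797, plus strand), the third member of this family, was at 39.4, 31.6 and 53.3 CPM in the control libraries (1 to 3) and at 54.9, 41.0 and 26.9 CPM in the treated ones (sedanolide 1 to 3). As with FOXA2, each of the libraries of side B was above each of side A. The log2 fold change between the groups was -0.017 (standard error 0.293, 95% interval -0.71 to 0.67, adjusted p = 0.985 from edgeR), and between side B and side A it was 0.71. With the side as a term the group difference became -0.27 (standard error 0.146, adjusted p = 0.353).

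HNF4A was at 353.6, 362.1 and 303.2 CPM in the control libraries (1 to 3) and at 252, 275 and 346.4 CPM in the treated ones (sedanolide 1 to 3). The groups overlapped because sedanolide 3 was above control 3. The mean was 339.7 ± 31.8 CPM in control and 291.1 ± 49.2 CPM in treated cells (SD, n = 3), giving a log2 difference of -0.22 (standard error 0.155, 95% interval -0.59 to 0.14, adjusted p = 0.623 from edgeR). All libraries of side B were below all libraries of side A, a log2 difference of -0.32. With the side as a term the group difference was -0.12 (standard error 0.0880, adjusted p = 0.494).

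HNF4G (ENSG00000164749, chromosome 8 from 75407914 to 75566834, plus strand) was at 14.9, 20.03 and 15.3 CPM in the control libraries (1 to 3) and at 15.1, 15.02 and 18.9 CPM in the treated ones (sedanolide 1 to 3). Only control 2 and sedanolide 3 stood above the other libraries. The log2 difference was -0.039 (standard error 0.170, 95% interval -0.44 to 0.36, adjusted p = 0.943 from edgeR).

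The factors were also compared by whether they differed more between the groups or between the sides. In the fit with both terms, the difference between the sides was larger than that between the groups for HNF4A, HNF4G, FOXA2 and FOXA3, that is 4 of 8, and for 66.2% of all genes tested. For the other factors it was between -0.10 (PROX1) and 0.094 (CEBPA). Within side A the log2 difference between sedanolide and control was -0.45 for PROX1, -0.37 for ONECUT1, -0.30 for FOXA1 and -0.43 for CEBPA. Within side B these were -0.45, -0.50, -0.28 and -0.28. Side A holds 2 control libraries and side B holds 1, so that these values have no test of their own. For HNF4A the values within the sides were -0.047 and -0.20, for FOXA2 -0.021 and 0.039, for FOXA3 -0.39 and -0.17 and for HNF4G 0.13 and -0.026. The mitochondrial share of each library moved with the sides, and its part in the levels of these factors was not tested.

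**Figure D3:**
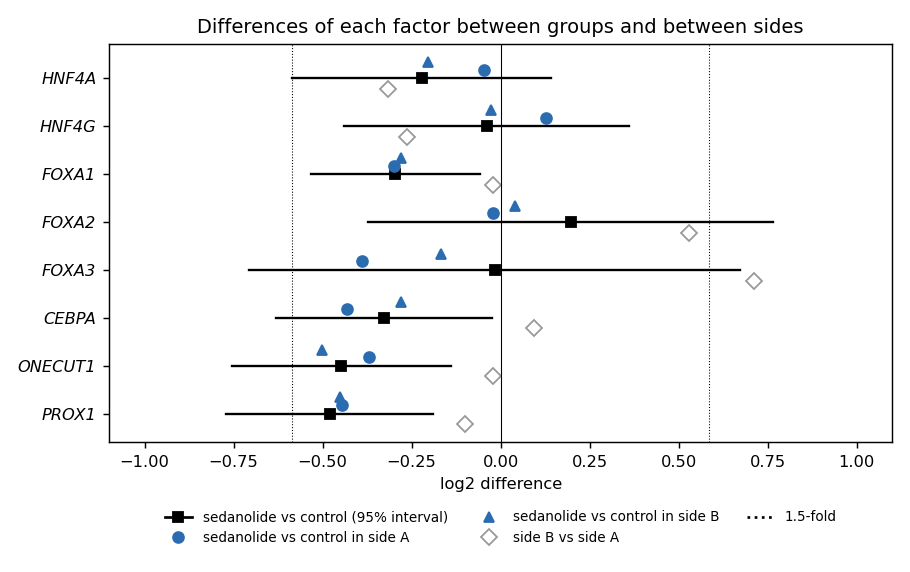
Log2 differences of each factor, with squares for sedanolide against control over all libraries (lines are 95% intervals), blue symbols for the same difference within each side, and open diamonds for side B against side A. The diamonds of FOXA2 and FOXA3 lie at 0.53 and 0.71, and the blue symbols of FOXA1, CEBPA, ONECUT1 and PROX1 all lie between -0.50 and -0.28.

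How alike the profiles of the factors were was described by the root-mean-square distance between their mean-centred log2 CPM over the 6 libraries. ONECUT1 and PROX1 were the closest pair (0.065), followed by FOXA1 with ONECUT1 (0.089). FOXA2 and FOXA3 were the nearest to each other (0.149), and HNF4A and FOXA3 were the farthest apart (0.534). Of 12773 other genes with a mean of at least 1 CPM, those closest to HNF4A were PRKRIP1 (0.019), GSE1 (0.020) and DCBLD1 (0.027). These distances carry the difference between the sides as well as that between the groups.

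Long noncoding RNAs are transcribed next to several of the factors. LINC00261, which lies beside FOXA2 on the same strand (chromosome 20 from 22547663 to 22578642), was at 103.4, 134.2 and 89.0 CPM in the control libraries (1 to 3) and at 69.8, 78.9 and 102.2 CPM in the treated ones (sedanolide 1 to 3). It was low in the libraries of side B, in which FOXA2 was high. Its log2 difference was -0.38 (adjusted p = 0.516 from edgeR). HNF4A-AS1 (0.916 ± 0.270 CPM in control cells), CEBPA-DT (4.88 ± 0.775 CPM) and PROX1-AS1 (1.31 ± 0.445 CPM) were low, with log2 fold changes of -0.27, -0.17 and 0.23 and adjusted p-values from 0.763 to 0.796. None of the 4 was called by edgeR, none had an unadjusted p-value under 0.05, and the groups overlapped in each.

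Other liver-enriched factors were examined as a list of 25 genes, 24 of which were tested. None was called by edgeR or by DESeq2, 15 were lower and 9 higher in the fitted fold change, and the median log2 fold change was -0.081. KLF15 and ID2, that is 2 of 24, were lower at an unadjusted p-value under 0.05, a share near the 6.57% of all genes tested. KLF15, a Krüppel-like factor of amino acid and glucose metabolism in fasting, was at 3.18 ± 0.194 CPM in control and 2.04 ± 0.253 CPM in sedanolide-treated cells, a log2 difference of -0.65 (adjusted p = 0.228). ID2, an inhibitor of basic helix-loop-helix factors, was at 134.5 ± 8.46 and 101.9 ± 7.49 CPM, a log2 difference of -0.40 (adjusted p = 0.245). For KLF15, ID2 and CEBPD the sedanolide libraries lay below the controls, that is for 3 of 24 genes, where 9.65% of all genes tested did so. NR2F2, a nuclear receptor, had a log2 difference of -0.31 (adjusted p = 0.559).

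Of 26 coregulators and protein partners, all were tested and none was called by edgeR or DESeq2. In the fitted fold change 15 were lower and 11 higher, with a median of -0.025, and only NR0B2 had an unadjusted p-value under 0.05. At this level 6.57% of all genes tested were lower and 5.34% higher. In 2 of the 26 the sedanolide libraries lay below all controls and in 2 above them, beside 9.65% and 8.69% of all genes tested. NR0B2, the small heterodimer partner, is an orphan receptor that lacks a DNA binding domain and represses HNF4A and other nuclear receptors. It was at 83.2, 71.1 and 82.6 CPM in the control libraries (1 to 3) and at 59.5, 56.4 and 60.1 CPM in the treated ones (sedanolide 1 to 3), all below the controls, with a log2 difference of -0.43 (adjusted p = 0.203 from edgeR). With the side as a term its adjusted p was 0.0483 and with DESeq2 it was 0.0276, at a log2 difference of -0.43 in both, which did not reach 1.5-fold. In these fits 2.35% and 1.75% of all genes were lower at an FDR of 0.05, with no regard to fold change. NCOA1, a receptor coactivator, had a log2 difference of -0.24 (adjusted p = 0.428), and PRMT1, an arginine methyltransferase, of 0.40 (adjusted p = 0.431).

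PPARGC1B, a coactivator of mitochondrial genes, was at 5.69, 7.12 and 3.84 CPM in the control libraries (1 to 3) and at 6.56, 7.76 and 12.5 CPM in the treated ones (sedanolide 1 to 3). The groups overlapped, with control 3 the lowest library and sedanolide 3 the highest. Its log2 difference of 0.68 was not past the test (adjusted p = 0.445), but with the side as a term it was called, at 0.93 (adjusted p = 0.0104), where 2.69% of all genes were called. Its relative PPARGC1A, which joins HNF4A in switching on genes of gluconeogenesis, was at 36.4 ± 5.92 and 38.5 ± 9.35 CPM, a log2 difference of 0.082 (adjusted p = 0.902).

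Of 50 genes that hepatocytes express under the control of these factors, 39 were tested. The other genes had at most 11 counts in a library, among them CYP3A4, CYP7A1 and OTC. The hepatocyte markers described above, except AFP, are also in this list. Of the 39, 32 were lower and 7 higher in the fitted fold change, with a median of -0.29. G6PC1, IGFBP1 and APOA5 passed the test and were lower, that is 3 of 39 beside 0.312% of all genes tested, and none passed as higher. The list was written with the decreases of G6PC1 and IGFBP1 in these libraries already known. G6PC1, the catalytic subunit that releases glucose from glucose-6-phosphate, was at 13.9, 18.5 and 9.44 CPM in the control libraries (1 to 3) and at 1.83, 1.89 and 3.09 CPM in the treated ones (sedanolide 1 to 3). It had a log2 difference of -2.61 (adjusted p = 0.0259 from edgeR). IGFBP1, a secreted binding protein for insulin-like growth factors, fell from 995.5 ± 115.2 to 500.4 ± 41.2 CPM, a log2 difference of -0.99 (adjusted p = 0.0300). APOA5, an apolipoprotein that promotes the clearance of triglycerides, was at 23.5, 20.4 and 18.5 CPM in the control libraries (1 to 3) and at 10.9, 11.5 and 11.5 CPM in the treated ones (sedanolide 1 to 3), and its log2 difference was -0.88 (adjusted p = 0.0450). The calls changed when a library was left out. Without control 1, control 2, sedanolide 1 or sedanolide 2 none of the 3 was called, without control 3 G6PC1 was called, and without sedanolide 3 G6PC1 and IGFBP1 were. Without control 1 or sedanolide 2 no gene of the whole table was called. Over the fits that left out a library, the log2 difference stayed between -2.91 and -2.35 for G6PC1, between -1.05 and -0.89 for IGFBP1 and between -0.95 and -0.79 for APOA5.

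FGA, the fibrinogen alpha chain, lay just outside the threshold at 889.8, 968.0 and 822.4 CPM in the control libraries (1 to 3) and 515.9, 538.9 and 559.8 CPM in the treated ones (sedanolide 1 to 3) (log2 fold change -0.73, adjusted p = 0.0502 from edgeR). With the side as a term and also with DESeq2, 7 of the 39 were called, namely F7, F10, FGA, APOA5, G6PC1, IGFBP1 and SLC2A2, and all were lower. In the same fits 2.69% (1.62% as lower) and 2.31% of all genes tested were called, more than the 0.667% in the fit without the side. Coagulation factors F7 and F10 had log2 fold changes of -0.65 and -0.71 in the fit without the side, and SLC2A2, the glucose transporter of hepatocytes, of -0.71. At an unadjusted p-value under 0.05, 15 of the 39 were lower and 1, HPD, was higher, beside 6.57% and 5.34% of all genes tested. In 15 genes the sedanolide libraries lay below all controls and in 1 above them, beside 9.65% and 8.69% of all genes tested. ALB, the most abundant plasma protein, was at 1169 ± 113.3 and 866.0 ± 56.8 CPM (log2 fold change -0.43, adjusted p = 0.241). APOA1, RBP4, ASGR1 and AMBP, also products of hepatocytes, had log2 fold changes between -0.074 and 0.059, whereas the median of the list was -0.29. TTR, FGB, MTTP and APOM, of the same list, were at -0.53, -0.45, -0.35 and -0.71 and were not called by edgeR. Of the 39 genes, 32 were lower and 7 higher. F7, F10, SLC2A2, HPD, ALB, APOA1, RBP4, ASGR1, AMBP, TTR, FGB, MTTP, APOM, PPARGC1A, CEBPB and ONECUT2 were named after their values were seen.

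**Figure D4:**
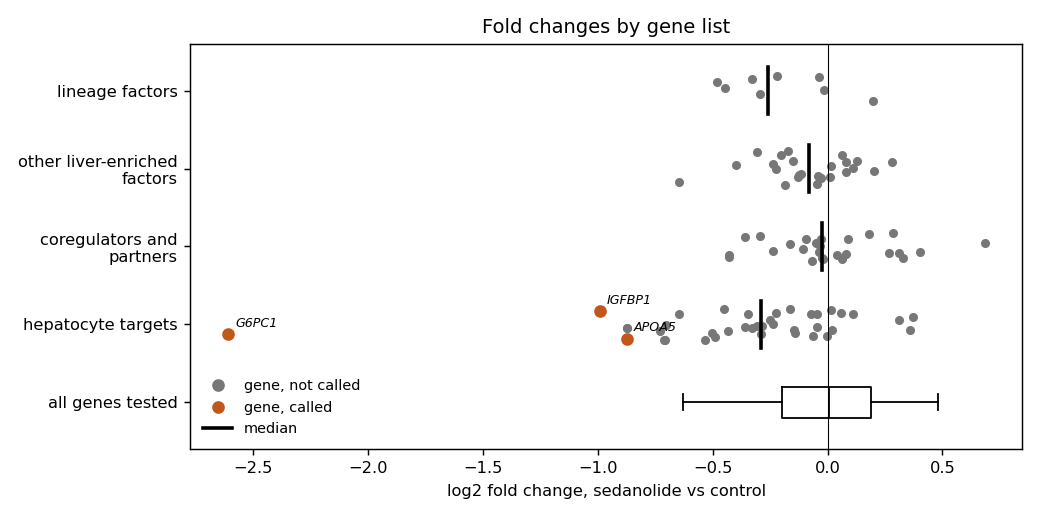
Log2 fold changes between sedanolide and control for the genes tested in each list, with called genes in orange, a bar at each median, and a box for all genes tested (box from the first to the third quartile, whiskers from the 5th to the 95th percentile). G6PC1, IGFBP1 and APOA5 are called among the hepatocyte targets at -2.61, -0.99 and -0.88, and no lineage factor is.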

How the data were processed

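RNA-seq was measured in 6 libraries of HepG2 cells. Per the labels and methods, the authors used FastQC and Trimmomatic on the reads, aligned them to GRCh38 with STAR and counted them with RSEM, and the authors deposited expected counts per gene for all libraries. The authors also deposited a filtered second table, which from its values holds log2(TPM + 1). Versions, annotation release and use of strand in counting were not given in the sources used here. Expected counts were rounded to whole numbers. Genes with enough counts were kept by the filterByExpr function of edgeR, given the groups. They were scaled by TMM and tested with edgeR 4.0.16 (R 4.3.3) quasi-likelihood tests with Benjamini-Hochberg adjustment. Calls needed an FDR of 0.05 and a 1.5-fold change. Changes are on the log2 scale. TPM were recovered from the deposited log2 values for levels and tested in limma 3.58.1 with a pseudocount of 1 or 0.1. DESeq2 1.42.0, other scalings, filters, a replicate block, a term for side and leaving out each library were alternatives. The test was run on simulated counts that had no difference between sides, which does not show how it behaves in these libraries. No source states that libraries came from separate cultures, so p-values measure only the spread between these libraries, which may be technical.

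The 8 factors and all gene lists were chosen with earlier results of these data known. In each list the genes named were by rule those called and, up to 4 in all, those with the lowest unadjusted p, together with all noncoding neighbours, up to 3 markers of each list with the highest mean CPM and the 3 genes closest to HNF4A in profile. Positions and exon overlaps are from GENCODE on GRCh38, and promoter sequences are from RefSeq, where 5 of the 8 factors had an entry.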

Additional observations from a re-analysis of the deposited data

How the results depend on the processing

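None of the 8 factors and none of the other liver-enriched factors was called under any of the 18 alternatives, of which both fits of the TPM table held 7 of the 8 and 21 of the 24. Of the hepatocyte target genes, 3 were called, against 7 with DESeq2, 7 with the side as a term, 5 with library size only, 0 with a test against the fold threshold (glmTreat), 0 in both fits of the TPM table, and 0 to 2 when a library was left out. Of the coregulators, 1 was called with the side as a term. HNF4G turned to 0.041 with the side as a term and ranged from -0.16 to 0.11 when a library was left out. FOXA2 ranged from -0.042 (without sedanolide 1) to 0.38 and FOXA3 from -0.29 to 0.21 (without control 3 or sedanolide 3). Over all genes 94 were called, 326 with DESeq2, 379 with the side as a term, 157 with all genes of 1 count, 11 with glmTreat, 61 and 67 in the TPM table, and 0 to 135 when a library was left out (0 without control 1 or sedanolide 2, where 1065 and 887 passed an unadjusted p of 0.05). The cause was not tested.

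Deviations from the group means of libraries with the same replicate number correlated at -0.13, -0.30 and -0.73. These deviations also carry the difference between the sides, so a weaker pairing by replicate number could not be seen in them. With the replicate block edgeR called 0 target genes and 0 of all genes, with 770 at an unadjusted p-value under 0.05. ONECUT1 had the least depth, with 110 to 212 counts per library, and its standard error of 0.131 was close to that of PROX1 (0.123).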
